A study of Mus musculus with 10 samples.

Results

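The cells described here are irradiated mouse embryonic fibroblasts (MEFs) that were kept in culture without leukemic cells and with only the solvent DMSO, and what was described is the level of each gene's RNA in that resting feeder layer. The MEFs + DMSO group was chosen by its sample labels and consists of 3 of the 10 arrays of the series. Wild type MEFs were given 1000 rad of gamma irradiation over 15 min, were plated on 10-cm dishes, and were harvested on day 9. By the sample records, all dishes of all groups held the same medium, McCoy's 5A with 15% serum and 10 ng/ml of murine interleukin-3. The paper's methods give a much lower concentration of interleukin-3 for the culture of the ALL cells. The other arrays were 3 of MEFs given 16 nM nilotinib, an inhibitor of the Abl kinase, 3 of MEFs grown under a Transwell with ALL cells and 16 nM nilotinib, and 1 of MEFs grown under a Transwell with ALL cells and DMSO. The ALL cells are 8093 precursor B lymphoblasts from a Bcr/Abl transgenic mouse. The methods describe the triplicates as 3 dishes and do not say whether these came from separate isolations of MEFs, so p-values measure only the spread between dishes, which may be technical, and only 1 array of MEFs + ALL + DMSO was used because ALL cells had contaminated the others of that kind.

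Fibroblasts are the cells that build connective tissue. They secrete collagens and other matrix proteins, hold on to that matrix through integrins, and release factors that nearby cells need, which is why cells that can no longer divide are used as feeder layers for lymphoid and stem cells. Irradiation breaks DNA and activates the p53 protein, which switches on inhibitors of the cell cycle and repair genes, and a cell that leaves the cycle stops making the machinery of mitosis. Cultured fibroblasts on a stiff dish also tend towards myofibroblasts, the contractile form seen in healing wounds.

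RNA was hybridised to Mouse Gene 1.0 ST arrays, and each value is the log2 of a probeset's RMA-normalized signal, so that a difference of 1 is a 2-fold difference in signal. Of 35557 probesets, 21789 were annotated with 1 gene symbol, and they give 19938 genes. Probesets bind with different strength and are not scaled per transcript length, so an order of genes here is an order of signals, not of RNA amounts. In a bulk sample, fewer cells of a type and less RNA per cell cannot be told apart. The dishes gave nearly the same values, with correlations from 0.993 to 0.994 between pairs of arrays across probesets. To judge what a dim signal means, 2 levels were read from each array. The receptor level is the 95th percentile of 1193 olfactory, vomeronasal and trace amine receptor genes, which sensory neurons use, and it was 6.33, 6.38 and 6.42 on the 3 arrays. The other-lineage level is the 95th percentile of 104 markers of muscle, epithelium, neurons, liver, red cells and germ cells, was chosen after seeing the data, and was 7.90, 7.86 and 7.96. On all 3 arrays 13136 genes (65.9%) lay above the receptor level and 8286 (41.6%) above the other-lineage level. Signals between the levels are given as values and are not read as expression.

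The strongest signals came from the matrix, the contractile skeleton and the ribosome. Thbs1, which encodes the matrix glycoprotein thrombospondin-1, read 13.73, 13.71 and 13.77 in the 3 dishes. It was followed by the translation factor gene Eef1a1 (13.71, 13.68 and 13.71) and by Actb, cytoplasmic actin (13.69, 13.65 and 13.69). The values of Eef1a1 overlap with those of Thbs1 and with those of Actb. Fn1, the gene of fibronectin, read 13.57, 13.56 and 13.54. Col1a1 and Col1a2, the chains of type I collagen, read 13.52, 13.49 and 13.52 and 13.25, 13.24 and 13.22. Acta2, the smooth muscle actin that marks myofibroblasts, read 13.54, 13.45 and 13.50, a range that overlaps those of Col1a1 and of Ccn2, the connective tissue growth factor gene (13.50, 13.47 and 13.48). The other genes among the 25 highest were Vim, the intermediate filament vimentin (mean 13.31), the sugar-binding Lgals1 (13.22), the ribosomal Rplp0 (13.16), Rplp1 (13.08) and Rps2 (13.05), the proteoglycan Bgn (13.11), the actin-binding Tagln (13.06), the lysosomal protease Ctsd (13.05), the collagen-binding Sparc (13.05), the G1 cyclin Ccnd2 (13.04), the membrane-binding Anxa1 (13.03), the nuclear RNA Malat1 (13.03) and the mitochondrial cytochrome oxidase subunit COX2 (12.98). Noncoding RNAs made by RNA polymerase III were there too, with Rny3 at 13.96, Rn7sk at 13.64 and the RNase P RNA Rpph1 at 13.41. Baiap2l1 had the highest signal of all (14.13, 14.08 and 14.22), but it has 3 probesets, and the others read 7.88 and 12.05, so its place rests on 1 probeset.

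**Figure D1:**
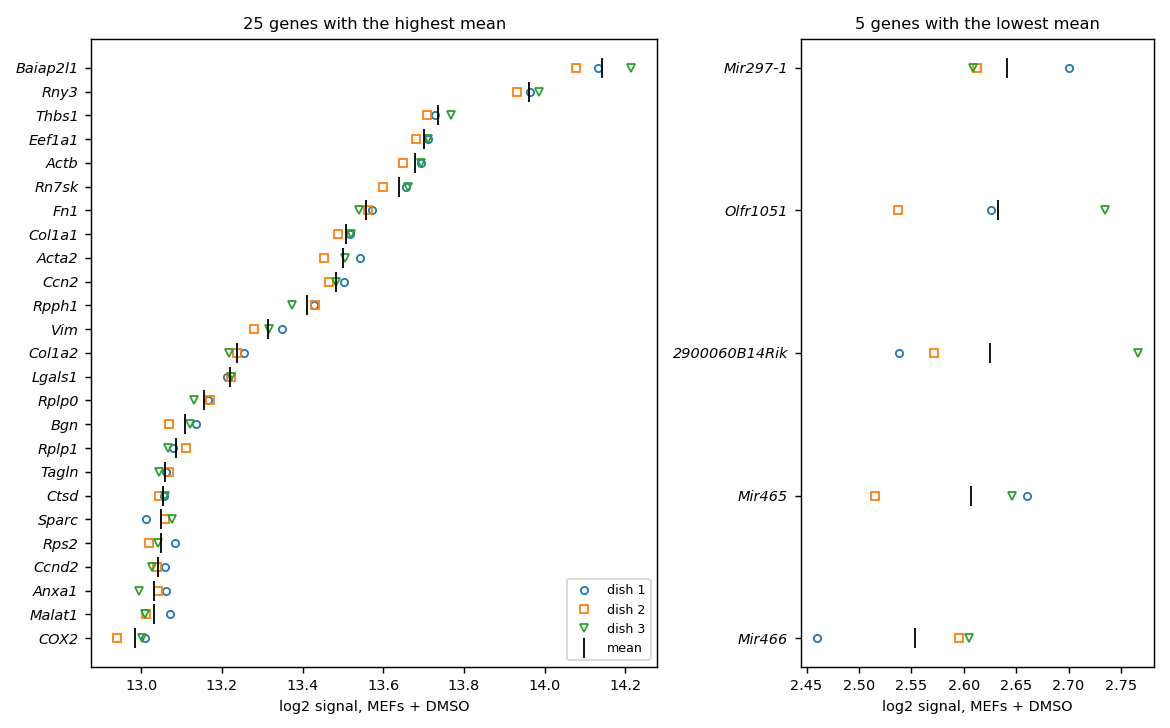
Log2 signal of the 25 genes with the highest mean (left) and the 5 with the lowest (right) in MEFs + DMSO, with a symbol for each of the 3 dishes and a bar for the mean; the panels have different scales. Dishes lie close together, as for Thbs1 (13.71 to 13.77), beside the span from 12.98 for COX2 to 14.14 for Baiap2l1.

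At the other end were genes of the nose and small RNAs. The lowest signals were those of the microRNA genes Mir466 (2.55), Mir465 (2.61) and Mir297-1 (2.64), of 2900060B14Rik (2.63) and of the olfactory receptor gene Olfr1051 (2.63). Of the 200 genes with the lowest means, 117 (58.5%) were receptors of smell and 23 (11.5%) were microRNA genes, beside 5.98% and 1.49% of all genes. The secreted class gave 1 (0.5%). Of the 200 with the highest, 51 belonged to the housekeeping lists, 26 to matrix, 11 to lineage markers, 7 to secreted factors, 4 to receptors, 4 to the cell cycle and 0 to transcription factors, while 100 were in none of the lists. Genes can stand in more than 1 list.

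The sequence before the start of a gene differed along this order. Windows from RefSeq (GRCm38.p6), each 300 bases from 250 before to 50 after the annotated start, were given for 15614 of the 19938 genes. Several windows were given for 2637 of these, and the first listed was used. The median ratio of observed to expected CpG was 0.136 in the decile of genes with the lowest signal and 0.811 in the decile with the highest, and the median G + C content was 40.3% and 62.7%. Receptors of smell, with 1021 windows, had medians of 0.107 and 35.3%, and their median signal stood at percentile 7.44 of all genes. How much of the contrast between the deciles came from this family was not tested. The core motif TATAAA, searched on the gene's strand with its first base 40 to 21 bases before the start, was in 2.59% of all windows (95% Wilson interval 2.35% to 2.85%). Its share was 5.25% in the lowest decile, 0.513% in the ninth and 1.92% in the highest. Of the 25 highest genes 12 had a window, and 2 of these, Vim and Anxa1, held it. They are shown with Ccn1, the highest secreted gene that holds it, and with Eef1a1 and Col1a2, whose windows used here do not. Cdk1 and Cdc20, genes of mitosis whose signals are far lower, and the olfactory receptor gene of lowest signal are also shown. Each line gives the 100 bases before the start, 5′ to 3′, with TATAAA and CCAAT in capitals on either strand (TTTATA and ATTGG on the other).
Vim (chr2:13574211-13574310, plus strand): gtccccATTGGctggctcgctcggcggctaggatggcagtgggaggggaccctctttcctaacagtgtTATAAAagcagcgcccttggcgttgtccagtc
Anxa1 (chr19:20390672-20390771, minus strand): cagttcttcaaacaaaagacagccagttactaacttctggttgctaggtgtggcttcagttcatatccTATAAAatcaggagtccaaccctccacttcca
Eef1a1 (chr9:78481725-78481824, minus strand): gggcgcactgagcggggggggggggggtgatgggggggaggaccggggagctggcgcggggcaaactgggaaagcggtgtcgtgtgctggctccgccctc
Col1a2 (chr6:4505518-4505617, plus strand): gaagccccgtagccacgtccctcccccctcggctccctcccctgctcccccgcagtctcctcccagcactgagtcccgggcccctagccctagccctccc
Ccn1 (chr3:145649986-145650085, minus strand): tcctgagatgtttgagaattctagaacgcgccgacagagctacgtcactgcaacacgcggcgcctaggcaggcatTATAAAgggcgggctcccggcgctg
Cdk1 (chr10:69352913-69353012, minus strand): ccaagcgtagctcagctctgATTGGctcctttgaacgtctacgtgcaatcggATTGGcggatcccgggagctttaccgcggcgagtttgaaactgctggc
Cdc20 (chr4:118437344-118437443, minus strand): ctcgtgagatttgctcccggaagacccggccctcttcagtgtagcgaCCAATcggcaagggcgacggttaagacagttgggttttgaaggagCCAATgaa
Olfr1051 (chr2:86276486-86276585, minus strand): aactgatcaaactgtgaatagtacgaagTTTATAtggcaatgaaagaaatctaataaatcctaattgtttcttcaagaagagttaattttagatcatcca

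In the windows of Vim and Anxa1 the TATAAA motif began at position -32 from the start, and in that of Ccn1 at -25. Secreted factors held it in this place in 12.6% of 223 windows (interval 8.83% to 17.5%), the interleukins and related cytokines in 23.3% of 43 and the chemokines in 5 of 25. The matrix class held it in 5.00% of 140 windows, the receptor class in 1.22% of 246 and the genes of mitosis in 0 of 45 (interval 0% to 7.87%). CCAAT on either strand anywhere in the 300 bases was found in 38.2% of all windows and in 68.9% of the 45 windows of mitosis genes (interval 54.3% to 80.5%), in 60.6% of the 33 of G1/S and replication genes, and in 61.9% of the 21 HOX windows. With the last listed window of each gene, TATAAA stood in this place in 2.60% of all windows, in 12.1% of those of secreted factors and in 0 of 45 of mitosis genes. These are matches of letters, and the lists were not drawn at random.

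**Figure D2:**
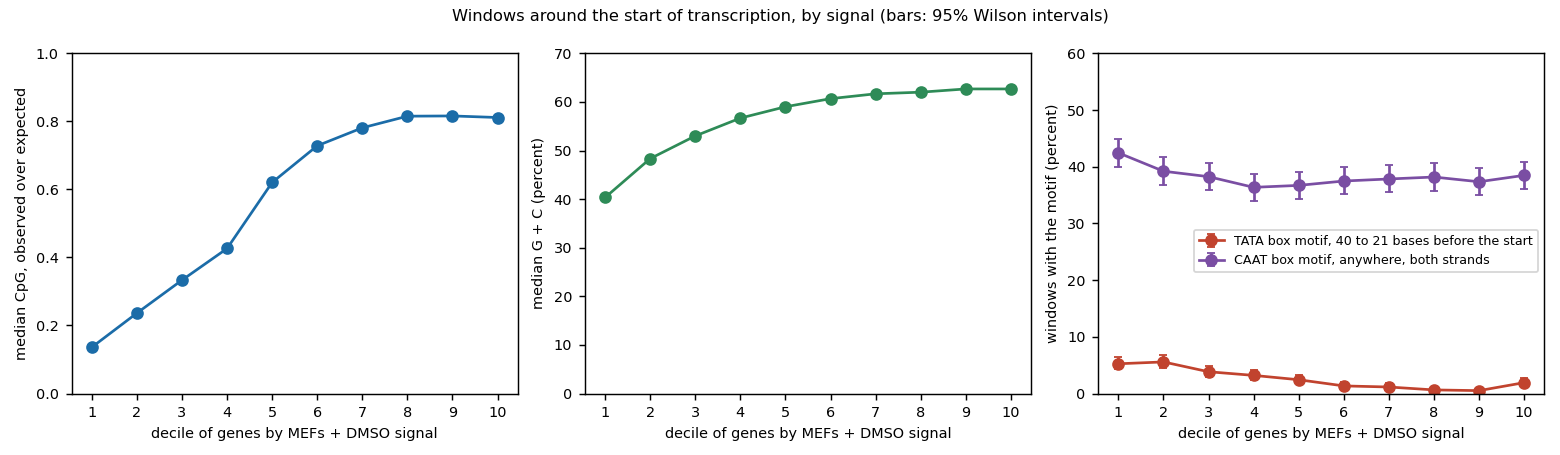
Deciles of genes by mean MEFs + DMSO signal (1 lowest, 10 highest) against the median CpG ratio, the median G + C percentage and the share of windows with each motif; bars are 95% Wilson intervals. The CpG ratio climbs from 0.136 to 0.811, and the TATA box share is lowest in the ninth decile, at 0.513%.

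Matrix genes stood high as a class. Of 191 measured, 162 (84.8%) lay above the receptor level and 111 (58.1%) above the other-lineage level, where all genes give 65.9% and 41.6%, and their median signal was 8.61 against 7.40 for all genes. All 44 collagen genes lay above the receptor level and 26 above the other-lineage level. After the type I chains came Col12a1, a fibril-associated collagen (12.78, 12.75 and 12.72), the type V chain Col5a2 (12.44, 12.39 and 12.34), Col8a1 (mean 12.19), and Col3a1, the partner of type I collagen in soft tissue (12.21, 12.14 and 12.14). The basement membrane chains Col4a2 (11.51) and Col4a1 (11.09) were also well above both levels. Collagens of cartilage were seen beside them, with Col10a1 of growth plate at 10.38, 10.33 and 10.32, Col11a1 at 10.66 and Col2a1 at 9.52, while the epithelial Col17a1 (7.02) and Col19a1 (6.56, the lowest) lay between the levels. The median SD of a collagen gene over the dishes was 0.051, and neighbours such as Col8a1 and Col3a1 did not differ beyond it.

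Noncollagenous matrix genes were more divided. Glycoproteins ran from Thbs1 and Fn1 through Sparc (13.01, 13.06 and 13.08), Thbs2 (12.86), the fibulin Fbln2 (12.80), periostin Postn (12.78) and the calcification inhibitor Mgp (12.59) down to the cartilage matrilin Matn1 (5.62) and the bone sialoprotein Ibsp (5.30), and 41 of 49 lay above the receptor level. Elastin, Eln, read 10.32, 10.47 and 10.47. Among the 23 proteoglycans, Bgn (13.13, 13.07 and 13.12), Aspn (mean 12.11) and Dcn (11.91, 11.92 and 11.89), small leucine-rich proteins that coat collagen fibrils, were highest. The corneal Kera was the lowest of the list, at 4.79. Laminins were led by Lamb1 (11.71) and Lamb2 (11.01), and the epithelial chain Lama3 (6.14) was the only one of 10 that was not above the receptor level on all arrays.

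Most genes that process collagen were high. All 23 lay above the receptor level and 21 above the other-lineage level, with a median of 10.46, and the exceptions to the latter included Adamts3 (7.54). Lox, the enzyme that cross-links collagen and elastin, read 12.92, 12.92 and 12.94, and the prolyl hydroxylase subunit P4hb (12.42), the procollagen enhancer Pcolce (12.27) and the lysyl hydroxylase Plod2 (12.25) followed. Of the proteases, the gelatinase Mmp2 (12.82, 12.81 and 12.80) and its membrane-bound activator Mmp14 (12.12, 12.06 and 12.06) were strong, as were the inhibitors Timp3 (12.69), Timp2 (12.53) and Timp1 (12.37). The other gelatinase, Mmp9, read 6.64 and the stromelysin Mmp3 6.03, while the mouse interstitial collagenase Mmp13 read 8.46 and Mmp1b 3.88, the lowest of the 44 proteases and inhibitors.

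**Figure D3:**
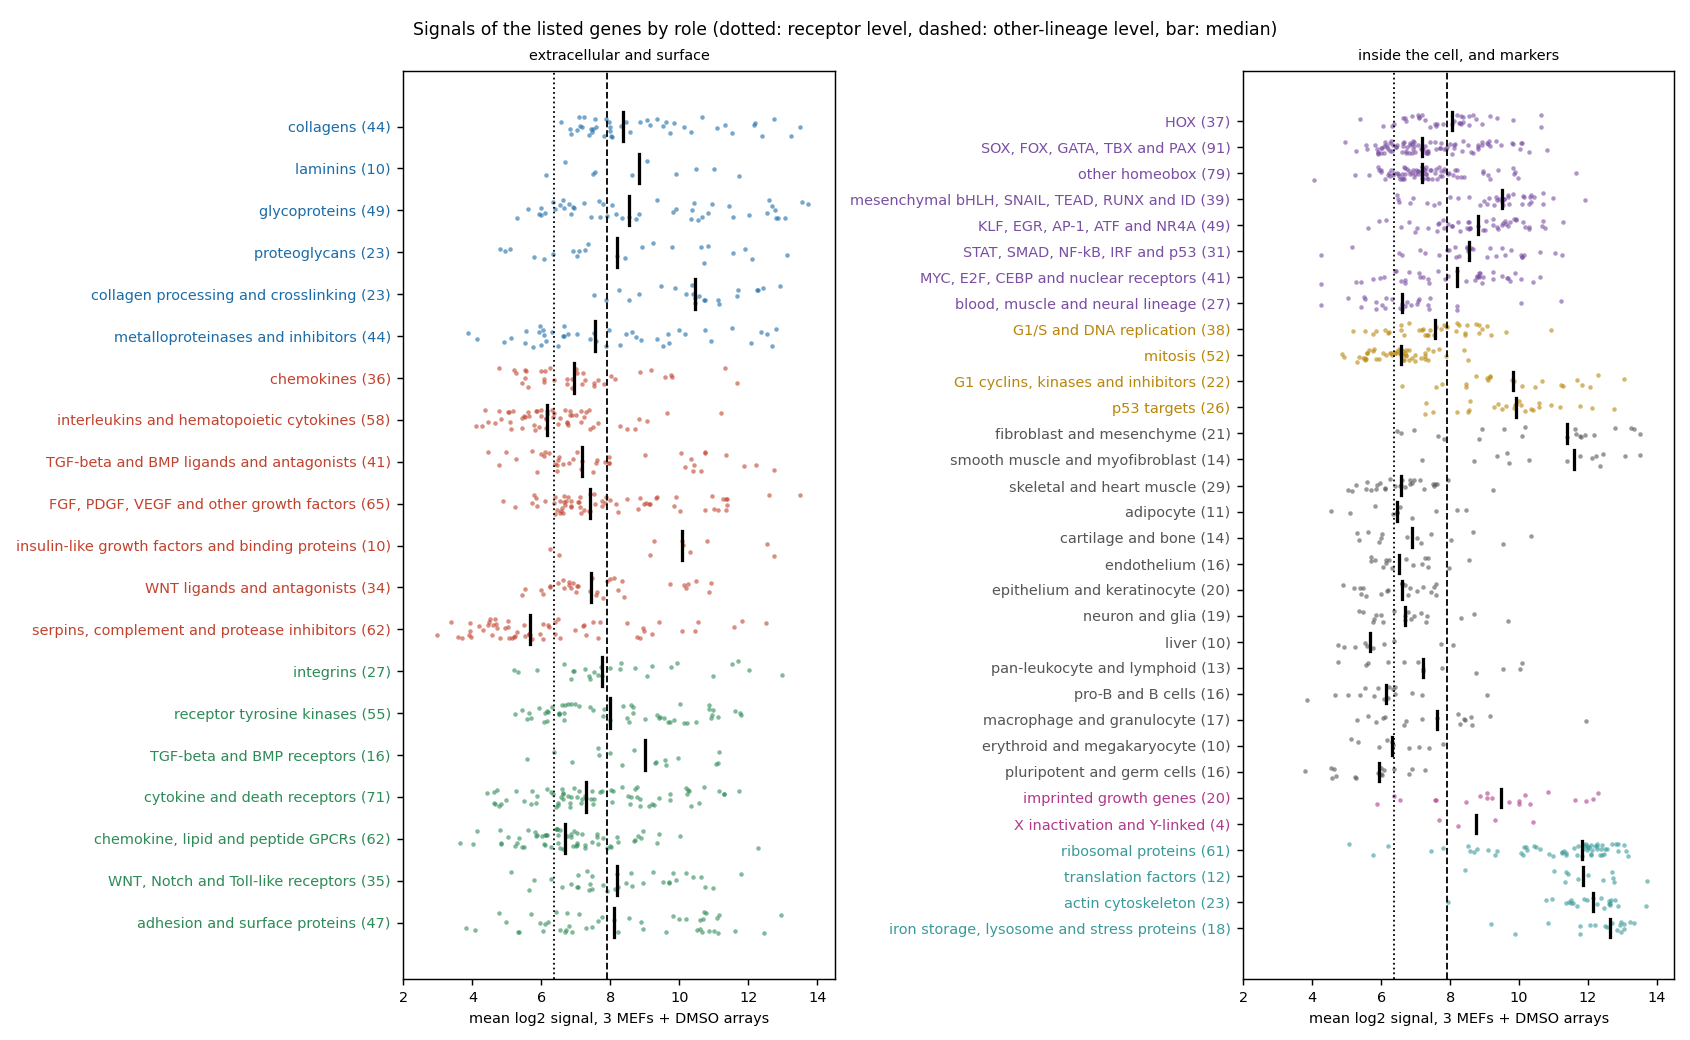
Mean log2 signal of every listed gene in MEFs + DMSO (points), by role with the number of genes, and the median of each role (bar); the dotted and dashed lines are the mean receptor level and the mean other-lineage level of the 3 arrays. Myofibroblast, fibroblast and collagen-processing genes have medians of 11.58, 11.40 and 10.46, and mitosis genes 6.56.

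Secreted factors held few very strong genes and a long dim tail. Of 306 measured, 187 (61.1%) lay above the receptor level and 88 (28.8%) above the other-lineage level, and the median was 6.87. All genes give 65.9%, 41.6% and 7.40. Of 36 chemokine genes 9 exceeded the other-lineage level. Cxcl12, the stromal factor that holds blood progenitors in the marrow, was the highest at 11.68, 11.66 and 11.67, and Cxcl14 followed at 11.39, 11.35 and 11.25. The macrophage chemokine Ccl3 read 9.92, 9.93 and 9.52, and the monocyte attractants Ccl7 and Ccl2 9.19 and 8.85. Ccl8 (4.77) and the neutrophil attractant Cxcl2 (5.21) were the lowest. The cytokine list was dim, with 7 of 58 above the other-lineage level. Its highest member was Csf1, the growth factor of macrophages (11.22, 11.23 and 11.20), followed by Tnfsf18 (9.64), the leukemia inhibitory factor Lif (9.10, 9.13 and 8.97) and Tnfsf15 (8.84). The gene of the B lymphoid growth factor Il7 read 6.39, 6.39 and 6.33 and was not above the receptor level on every array, and the interleukin-6 gene Il6 read 6.83, 6.83 and 6.62, between the levels. Il10 (4.28) and Il3 (3.95, 3.84 and 4.56), whose protein was added to the medium, were the lowest.

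Growth factor lists held a few strong genes among many dim ones. Of 41 TGF-beta and BMP ligands and antagonists 28 lay above the receptor level and 14 above the other-lineage level, with a median of 7.17, and of 65 other growth factors 55 and 25 did. Fstl1, a follistatin-like glycoprotein, read 12.76, 12.75 and 12.75, Tgfb3 12.28, 12.21 and 12.20, and the BMP antagonist Grem1 11.86, 11.91 and 11.87, with the activin subunit Inhba at 11.36 and Bmp4 at 10.73. Ccn1, which like Ccn2 is released into the matrix on stretching, read 12.60, 12.62 and 12.61. The heparin-binding Ptn (11.47, 11.38 and 11.34), the keratinocyte growth factor Fgf7 (11.48, 11.43 and 11.27) and Pdgfc (11.36) came next, and neuregulin Nrg4 (4.89) was the lowest of these 65 genes. Insulin-like growth factor binding proteins Igfbp2 (12.78, 12.73 and 12.70) and Igfbp7 (12.55) stood above the ligands Igf2 (10.30) and Igf1 (10.09), and Igfbp1, a liver product, read 6.26. In the WNT list the antagonists Sfrp1 (10.93) and Dkk3 (10.87) and the enhancers Rspo2 (10.48) and Rspo3 (10.21) were high beside the ligand Wnt5a (10.15, 10.21 and 10.07), and Wnt1 read 5.44. Cystatin Cst3 (12.48, 12.48 and 12.54) and the antiangiogenic Serpinf1 (11.76, 11.83 and 11.83) led the inhibitors, whose list went down to Serpinb3a, a keratinocyte serpin, at 2.84, 3.23 and 2.85. Of these 62 genes 40 were not above the receptor level on every array.

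Of 313 receptor genes 75.1% lay above the receptor level and 42.8% above the other-lineage level, where all genes give 65.9% and 41.6%. Of 27 integrins 13 exceeded the other-lineage level, and of 47 adhesion and surface proteins 24 did. The integrin subunit Itgb1, which pairs with most alpha subunits, read 13.01, 12.94 and 12.96. Itgb5 (12.02), the collagen-binding Itga11 (11.73, 11.70 and 11.68) and Itgav (11.51) followed, and the epithelial Itgb6 read 5.22. Receptor tyrosine kinases were led by the collagen receptor Ddr2 (11.81, 11.82 and 11.76) and Pdgfrb (11.77, 11.78 and 11.75), the PDGF receptor of mural and mesenchymal cells. Pdgfra, its partner, read 7.84, 7.92 and 7.66 and was not above the other-lineage level on every array, and Kit, the stem cell factor receptor, read 6.50. Bmpr1a (11.16) and Bmpr2 (11.12) were the highest receptors of the TGF-beta family, and Acvr1c the lowest (5.58). Among cytokine receptors, Ifngr2 (11.69, 11.72 and 11.77), the shared subunit Il6st (11.30) and the death-family receptor Tnfrsf12a (11.28) were high, and the decoy Il13ra2 (4.43) and the leptin receptor Lepr (4.63) low. F2r, the thrombin receptor, was the only one of 62 G protein-coupled receptors among the 200 highest genes (12.26, 12.24 and 12.31), and the lysophosphatidic acid receptor Lpar1 (10.01) was next, while the leukocyte receptor P2ry10 read 3.65. Lrp1, the endocytic receptor of matrix proteins (11.84, 11.78 and 11.73), and the WNT receptor Fzd7 (10.97) led their list, and Tlr1 was its lowest (5.12). The surface proteins Cd81 (12.95), the mesenchymal cadherin Cdh11 (12.49, 12.42 and 12.41) and Thy1 (11.64, 11.62 and 11.56) contrasted with the neural cadherin Cdh9 (3.82) and the epithelial cadherin Cdh1 (6.20).

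Transcription factor genes reached the middle of the range but not its top. Of 393 genes 324 (82.4%) lay above the receptor level and 172 (43.8%) above the other-lineage level, where all genes give 65.9% and 41.6%. Among the 200 highest were 0, and the class makes up 1.97% of all genes. Tead1, the partner of the mechanical signal carriers Yap1 and Wwtr1, was the highest at 11.95, 11.88 and 11.91, with Yap1 at 10.69 and Wwtr1 at 10.68. Prrx1, a homeobox gene of limb and body-wall mesenchyme, read 11.71, 11.64 and 11.63. Mesenchymal regulators as a list had a median of 9.51, with 31 of 39 above the other-lineage level, among them Zeb1 (10.35), Snai2 (10.15) and Twist1 (10.13, 10.20 and 9.96), and Tcf21 was the lowest (6.27, 6.36 and 6.72). Stress and signal factors were high too, with Hif1a at 11.26, Nfe2l1, the regulator of proteasome genes, at 11.26, Stat3 at 11.04, Atf4 at 10.74 and Klf6 at 10.70. The glucocorticoid receptor Nr3c1 read 10.40 and the clock repressor Nr1d1 10.60. Mef2a (11.21) and Sox4 (10.81) led the lists of lineage and SOX factors. Several factors of other lineages were low, such as Neurod1 of neurons (4.26), Stat4 of lymphocytes (4.26), Cdx4 of the tail bud (4.04), Sox2 (5.27) and Pou5f1 (5.24). Of 27 blood, muscle and neural factors 16 lay above the receptor level and 4 above the other-lineage level.

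HOX genes, which give cells their place along the body axis, differed widely in signal within each cluster. Of 37 measured, 33 lay above the receptor level and 18 above the other-lineage level, beside 65.9% and 41.6% of all genes. Hoxc8 (10.64, 10.74 and 10.55) and Hoxb9 (10.68, 10.66 and 10.58) had the highest signals and overlapped with each other, and Hoxa5 (9.85, 9.82 and 9.82) was next. In the Hoxb cluster 7 of 9 genes were above the other-lineage level, Hoxb6 at 9.35, Hoxb3 at 8.92, Hoxb2 at 8.56, Hoxb5 and Hoxb7 both at 8.38 and Hoxb4 at 8.28 besides Hoxb9, and its ends Hoxb1 (7.09) and Hoxb13 (6.32) were not. Hoxc5 (8.75), Hoxc6 (9.16) and Hoxc9 (8.25) flanked Hoxc8, and the signals then fell from Hoxc10 (7.59) to Hoxc11 (5.17, 5.30 and 5.70), with Hoxc12 at 6.04, Hoxc13 at 6.89 and Hoxc4 at 7.61. In Hoxa, Hoxa7 (8.65), Hoxa4 (8.54) and Hoxa6 (8.11) were above the other-lineage level with Hoxa5, Hoxa9 (8.04) and Hoxa10 (7.80) were near it, and Hoxa3 (7.57), Hoxa11 (7.27), Hoxa2 (7.10) and Hoxa13 (7.06) lay below. Hoxd had another shape, since its highest genes were Hoxd13 and Hoxd11 (both 8.31) and Hoxd10 (8.21), over Hoxd8 (7.42), Hoxd9 (7.19), Hoxd4 (6.71), Hoxd12 (6.70), Hoxd3 (6.62) and Hoxd1 (6.37).

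**Figure D4:**
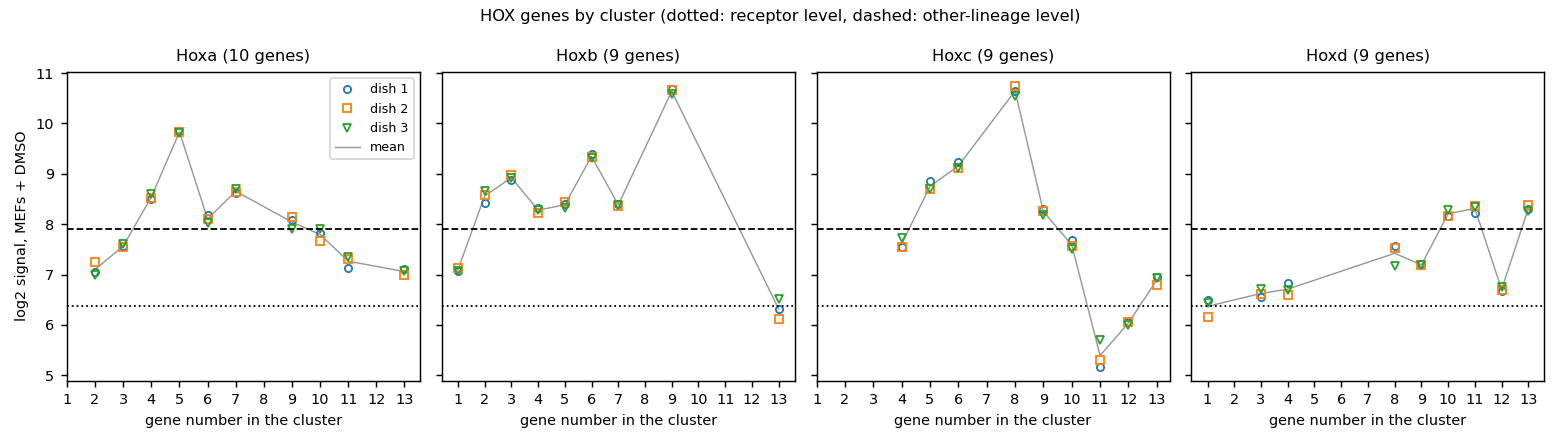
Log2 signal of the 37 measured HOX genes in the 3 MEFs + DMSO dishes against gene number in each cluster, with a line through the means; the dotted and dashed lines are the receptor and other-lineage levels. The peaks are Hoxa5 (9.83), Hoxb9 (10.64) and Hoxc8 (10.65), and the Hoxd cluster stays at or below 8.31.

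The cell cycle genes differed in signal by role. As a class, 78.1% of 137 lay above the receptor level and 41.6% above the other-lineage level, beside 65.9% and 41.6% of all genes. Genes of mitosis were dim: 29 of 52 lay above the receptor level, only Cdk1 (8.56, 8.50 and 8.51) and the checkpoint gene Mad2l1 (8.41, 8.41 and 8.35) above the other-lineage level, and the median was 6.56. The proliferation marker Mki67 read 6.20, 6.44 and 6.14, the topoisomerase Top2a 6.79, 6.70 and 6.69, the mitotic kinesin Kif11 6.06, 5.90 and 5.86 and the checkpoint kinase Bub1 5.75, and Kif4 (4.92) and the spindle gene Hmmr (4.86) were the lowest. Genes of G1/S and replication were less uniform, from the ribonucleotide reductase Rrm1 (10.98, 10.94 and 10.89) and the replication clamp Pcna (9.63) to Orc1 (5.54) and Gins1 (5.19), and 14 of 38 lay above the other-lineage level. The list of G1 cyclins, kinases and inhibitors stood high, and it also holds Gas6 (12.29), which encodes a secreted factor. All 22 genes lay above the receptor level and 19 above the other-lineage level. Apart from Gas6 the highest were Ccnd2 (13.06, 13.04 and 13.03), the kinase Cdk4 (12.05, 12.09 and 12.05) and Ccnd1 (11.81). Of the inhibitors, Cdkn2b read 11.32, 11.23 and 11.24. Cdkn2a, the senescence gene of the p16 and p19 proteins, read 9.75, 9.76 and 9.86. The inhibitors Cdkn1b (8.465), Cdkn2d (7.78) and Cdkn2c (6.62, the lowest of the 22) were dimmer. All 26 measured p53 targets lay above the receptor level and 23 above the other-lineage level. Ccng1 read 12.76, 12.72 and 12.73, Trp53inp1 12.13, 12.13 and 12.05, Plk2 11.74, 11.81 and 11.78, Phlda3 11.17 and the p53 antagonist Mdm2 10.97, 10.94 and 10.88, and the lowest were Sesn1 (7.29) and Ckap2 (7.28). Cdkn1a, the p53 target that encodes p21, has no probeset of its own symbol. No unirradiated MEFs were analysed here, so these levels cannot be set against those of dividing fibroblasts.

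The lineage lists with the highest medians were those of myofibroblasts and fibroblasts, followed by that of macrophages and granulocytes. As a class, 55.8% of 226 lineage markers lay above the receptor level and 24.3% above the other-lineage level, beside 65.9% and 41.6% of all genes. Of 21 fibroblast and mesenchyme markers 19 lay above the receptor level and 16 above the other-lineage level, including Vim (13.35, 13.28 and 13.32), Thy1 and Cd248 (11.40, 11.37 and 11.41), and the exceptions to the receptor level were Fap (6.65, 6.64 and 6.41) and Tcf21. All 14 smooth muscle and myofibroblast markers lay above the receptor level and 13 above the other-lineage level, among them Tagln (13.06, 13.07 and 13.04), Myl9 (12.44), Actg2 (11.77), Cnn1 (11.43, 11.38 and 11.39), Myh11 (9.69) and Des (9.45, 9.40 and 9.20). Of other lineages, 16 of 29 muscle, 11 of 20 epithelium, 11 of 19 neuron and glia and 8 of 16 endothelium markers lay above the receptor level. So did 8 of 14 of cartilage and bone, 6 of 11 of fat, 2 of 10 of liver, 4 of 10 of red cells and megakaryocytes and 3 of 16 of germ cells. Few exceeded the other-lineage level, which the muscle, epithelium, neuron, liver, red cell and germ cell lists define. Among those that did were Tubb3, a tubulin of neurons (9.69, 9.60 and 9.70), the skeletal actin Acta1 (9.24), Flt1 (8.55), Pparg (8.45) and the cartilage factor Sox9 (8.66). Low members were Adipoq of fat (4.55), Cdh5 of endothelium (5.70), Pecam1 (6.05), Epcam of epithelium (5.39), Alb of liver (4.94), Myf5 of muscle (5.04) and Sycp3 of meiosis (3.78). Of 17 macrophage and granulocyte markers 12 lay above the receptor level and 8 above the other-lineage level, and the median over the list was 7.70, 7.63 and 7.55 on the 3 arrays. The lysozyme gene Lyz2 read 12.03, 11.95 and 11.85, Cd68 9.20, 9.23 and 9.08, Csf1r, the receptor of Csf1, 8.61, 8.66 and 8.54, Tyrobp 8.42 and Adgre1, the F4/80 antigen, 8.52, 8.45 and 8.27, while the granulocyte genes S100a8 (5.29), Elane (5.84) and Mpo (6.10) were below the receptor level. Of 13 pan-leukocyte and lymphoid markers 9 lay above the receptor level and 4 above the other-lineage level, with a median of 7.20. Laptm5 (10.01), Cd53 (9.65, 9.55 and 9.37) and Lcp1 (8.74) were high, while Coro1a read 7.22, Cd8a 6.67 and Cd3d of T cells 5.56. The leukocyte integrin gene Itgal, which is not in this list, read 6.65. Of 16 pro-B and B cell markers only Ebf1, a gene that adipocyte precursors also use, exceeded the other-lineage level (9.10, 9.06 and 9.07), and Cd79a (5.40) and Rag2 (3.86) were low. Which cells in the dish carried the macrophage transcripts was not tested.

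Most imprinted growth genes had signals above both levels, and a link to the embryonic origin of the cells was not tested. Of 20 imprinted growth genes 18 lay above the receptor level and 15 above the other-lineage level, beside 65.9% and 41.6% of all genes. The maternally expressed noncoding RNA Meg3 read 12.33, 12.31 and 12.22, the insulin signal adaptor Grb10 12.19, 12.14 and 12.10, Impact 11.95, the IGF2 scavenger Igf2r 11.65, 11.59 and 11.59, Ndn 10.84, Igf2 10.26, 10.35 and 10.30, Peg3 10.17, Plagl1 10.00, Sgce 9.99, Mest 9.71, Rian 9.22, Peg10 9.07, Dlk1 9.06, Zim1 8.86 and Cdkn1c 8.46. Slc38a4 (7.58), Nnat (7.57) and Magel2 (6.55) lay between the levels, and Phlda2 (6.36) and Usp29 (5.88) were not above the receptor level on every array. Xist, the RNA of the inactive X chromosome, read 10.44, 10.44 and 10.35, together with the Y-linked Eif2s3y at 9.39, 9.27 and 9.23, Uty at a mean of 8.21 and Kdm5d at 7.90, 7.66 and 7.50, so each dish held RNA of the inactive X and of the Y chromosome. Of the pluripotency genes, Sox2 (5.27) and Pou5f1 (5.24) were below the receptor level, and Nanog read 6.88.

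The dishes differed little, and where they did replicate 3 was mostly the one apart. For genes above the receptor level the median SD over the 3 dishes was 0.0615, and 60 genes had a range over 0.5 and 0 a range over 1. The widest was Cxcl10, a chemokine gene that interferon switches on, at 7.23, 7.30 and 6.48. Other interferon-responsive genes were among the 10 widest, with Ifit1 at 7.37, 7.47 and 6.69 and Ifit2 at 7.73, 7.77 and 7.15, each lower in replicate 3, and Ifitm1, which was low in replicate 2 instead, at 7.91, 7.22 and 7.76. The other 6 were Macrod2 (7.44, 7.99 and 8.23), Cstad (7.23, 7.12 and 6.55), Gm6034 (6.88, 7.54 and 7.42), Teddm1b (6.74, 7.40 and 6.85), the histone gene H4c3 (6.77, 7.24 and 7.47) and the uracil glycosylase gene Ung (6.67, 6.86 and 7.36). Of the 100 widest genes replicate 3 lay apart from the others in 65, replicate 1 in 23 and replicate 2 in 12, where over all genes above the receptor level the shares were 45.0%, 30.9% and 24.1%. The median of the macrophage and granulocyte list was also lowest in replicate 3 (7.70, 7.63 and 7.55), with Mrc1 at 8.40, 8.39 and 8.07 and Mpeg1 at 8.32, 8.32 and 8.07, and the part of these cells in the interferon genes was not tested. Among the cell cycle genes above the receptor level the widest was Ccna2, the cyclin of S phase and early mitosis, at 7.12, 6.72 and 6.61.

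To ask whether these levels held when the MEFs met the drug or the leukemic cells, the 3 other groups were compared with MEFs + DMSO by limma over all 10 arrays, with p-values adjusted over all 35557 probesets by Benjamini-Hochberg and a threshold of 0.05. All 3 comparisons share the MEFs + DMSO arrays. Nilotinib alone moved no listed gene past the test. Limma called 0 of 35557 probesets (0% higher and 0% lower), with a smallest adjusted p of 0.237 and 3985 probesets at an unadjusted p under 0.05. Some bright genes of the baseline had like values, with Cxcl12 at 11.73, 11.84 and 11.74 (log2 difference 0.10, SE 0.06, limma adjusted p = 0.567) and Acta2 at 13.50, 13.55 and 13.51 (0.02, SE 0.06, adjusted p = 0.933). Col1a1 read 13.37, 12.61 and 12.96, all below the MEFs + DMSO dishes, and its difference of -0.53 (SE 0.16, limma adjusted p = 0.368) did not pass. Such a lack of overlap, in either direction, was seen for 7337 of 35557 probesets in this comparison, so it does not set Col1a1 apart. The means of Col1a2 (13.24 to 12.86), Col3a1 (12.16 to 11.73), Lrp1 (11.79 to 11.29) and Mmp14 (12.08 to 11.72) were also lower, uncalled. Of the 191 matrix genes 90 had differences above 0, and their median was -0.01. Without replicate 1 of MEFs + nilotinib limma called 57 probesets, 19 higher and 38 lower.

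In MEFs exposed to ALL cells and nilotinib, 20 secreted genes rose, both dim and bright ones. Of 1640 listed genes 47 (2.87%) rose and 5 (0.305%) fell, where of all 19938 genes 146 rose and 22 fell. The lists and their members, Penk among the growth factors included, were chosen with earlier results of these data known. Their counts therefore describe the listed genes and do not test whether a class rose more than others. Over all probesets, those without a symbol included, 0.503% rose and 0.124% fell. By class, 20 of 306 secreted, 10 of 313 receptor, 7 of 226 lineage, 6 of 191 matrix, 3 of 393 transcription factor and 2 of 137 cell cycle genes rose, and 0 of 114 housekeeping genes. Penk, the gene of the opioid precursor proenkephalin, went from 9.05, 8.98 and 8.94 to 10.20, 10.01 and 10.10, a rise of 1.12 (SE 0.07, limma adjusted p = 0.00524, n = 3 per group). Serping1, the complement C1 inhibitor, rose by 1.13 (SE 0.14, adjusted p = 0.0192), from a mean of 7.23 to 8.36, and the platelet and neutrophil chemokines Ppbp by 1.05 (7.02 to 8.08) and Cxcl5 by 0.94 (5.44, 5.49 and 5.40 to 6.32, 6.50 and 6.34). Fgf10 rose from 7.54 to 8.31, and among the brighter factors Igfbp4 rose from 10.79 to 11.49 and Grem1 from 11.88 to 12.39. Of the markers and receptors, S100a4 rose from 8.83 to 9.76, Des from 9.35 to 10.25, Thy1 from 11.61 to 12.21, S1pr3 from 9.35 to 10.00 and Ptger4, a prostaglandin receptor, from 7.46 to 8.12. Nr4a1, an immediate early gene, rose from 10.18 to 10.95, Cebpd from 6.68 to 7.46, and the S phase genes Ccne1 from 9.05 to 9.55 and Mcm2 from 8.24 to 8.67. Beside these, 1 of 13 pan-leukocyte and lymphoid markers rose (median difference over the list -0.04) and 0 of 16 pro-B and B cell markers and 0 of 17 macrophage and granulocyte markers did (medians -0.10 and 0.02), and the part of leukemic RNA in the genes that rose was not tested.

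The matrix genes that fell were Eln, from 10.32, 10.47 and 10.47 to 9.60, 9.75 and 9.53 (-0.79, SE 0.11, limma adjusted p = 0.0292), Col10a1, from 10.34 to 9.74, the protease gene Adamts12, from 10.75 to 10.21, and the hemicentin gene Hmcn1, from 9.34 to 8.87. Prelp (10.63 to 11.23) and Col6a2 (9.73 to 10.26) rose. Nr1d1 fell from 10.60 to 10.11. None of the 37 HOX genes, the 26 p53 targets, the 52 mitosis genes or the 20 imprinted genes passed. The median difference of the p53 targets was -0.14, with 4 of 26 above 0, beside 0.00 for all genes, and that of the G1/S genes 0.19, with 35 of 38 above 0. These calls depend on single arrays. In place of 223 probesets, the refits called 29, 14 and 8 in all without MEFs + DMSO replicate 1, 2 or 3 and 22, 99 and 31 without MEFs + ALL + nilotinib replicate 1, 2 or 3. Of the 52 listed genes called, 2 to 24 were still called when 1 array was left out, and only Penk and Cxcl5 of the listed genes passed under all 14 settings, the main one included. With the replicate number as a block 8 were called, and with only the 6 arrays compared 12.

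The lone array of MEFs exposed to ALL cells and DMSO stood apart from the baseline in its cell cycle genes, where the mitosis probesets read high. With 1 array this group has no spread of its own and no replicate check. Its fit borrows the spread of the other groups, so only differences from the MEFs + DMSO means are given, and they describe this array. Mki67 read 9.52 on it against 6.20, 6.44 and 6.14, Kif11 9.94 against 6.06, 5.90 and 5.86, and Top2a 10.44 against 6.79, 6.70 and 6.69. Of the 52 mitosis genes 50 were called higher and 0 lower, with a median difference of 2.17, and of 38 G1/S and replication genes 35 were higher. The median over all genes was -0.07, and 6.67% of all probesets were called higher and 3.59% lower. Of 26 p53 targets 0 were higher and 8 lower, among them Mdm2 (10.30, difference -0.63). Of 44 collagens 1 was higher and 12 lower, with Col10a1 at 8.74 and Col11a1 at 9.48 against 10.34 and 10.66. The same array carried transcripts of B cells: 14 of 16 pro-B and B cell markers had differences above 0, with a median of 1.29. Igll1 read 11.08 against 6.81, 6.91 and 6.99, and the leukocyte genes Rac2 and Coro1a 10.66 and 10.52 against 7.75 and 7.22. The part of these transcripts in the cell cycle values was not tested.

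**Figure D5:**
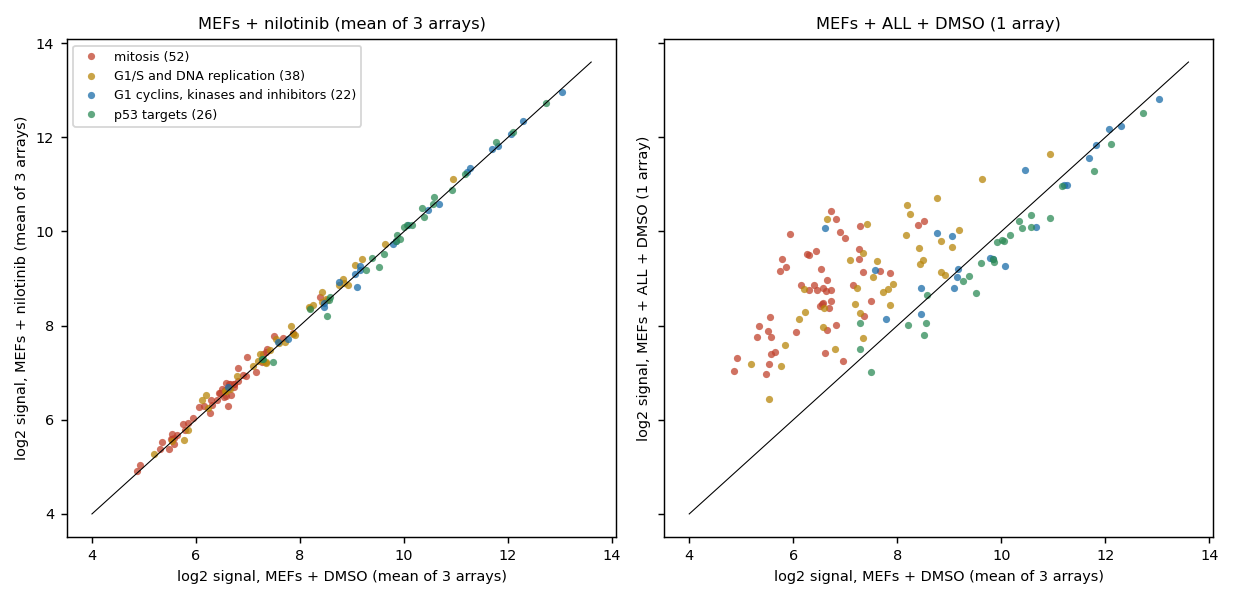
Log2 signal of cell cycle genes in MEFs + DMSO (mean of 3 arrays, horizontal) against MEFs + nilotinib (left, mean of 3 arrays) and the lone MEFs + ALL + DMSO array (right), by role with the number of genes, and the line of equal signal. On the left all roles follow the line; on the right the mitosis genes lie above it by a median of 2.17 and the p53 targets lie mostly under it, by a median of -0.27.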

How the data were processed

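RNA of 10 dishes was measured on arrays in 4 groups taken from the sample labels. The deposited log2 values were made by the authors with RMA in Partek Genomics Suite (version not given in the sources used here) and had no missing values, and no column was left out. Probesets were named from the platform annotation: 21789 carried 1 symbol, 1621 several and 12147 none, and 21698 matched RefSeq. Of 999 genes with several probesets, the probeset with the highest mean over the 10 arrays was kept. The genes named are the 25 highest, the 5 lowest, the 10 widest, and the ends and role-defining members of 53 lists, with others added after their values were seen. The members and lists were chosen with earlier results of these data known. The value of 1 pan-leukocyte gene is not reported here. Groups were compared with limma 3.58.1 in R 4.3.3 (all arrays in 1 fit, Benjamini-Hochberg adjustment), and levels were read in Python with pandas 2.3.3. Intervals are 95% Wilson and cover counting error only. Tested on simulated data for MEFs + ALL + nilotinib, over 35557 probesets, 61% of probesets changed by 0.5 on the log2 scale were recovered and 91% of those changed by 1. The simulated arrays were independent and all took the spread of the MEFs + DMSO dishes, so these shares may overstate recovery in the data. The number of arrays limits the precision. Other normalizations, filters, fits and left-out arrays were tried.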

Additional observations from a re-analysis of the deposited data

How the results depend on the processing

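The count of genes above the receptor level depends on the level: it was 8286 with the 95th percentile of other-lineage markers, which was chosen after seeing the data, and 13231 to 13303 when 1 MEFs + DMSO array was left out. The 25 highest genes shared 24 to 25 members when 1 array was left out and 25 after quantile normalization. MEFs + nilotinib had 0 called probesets, and 0 to 57 when 1 array was left out. MEFs + ALL + nilotinib, with 223 called, had 476 with a trend and robust variance, 1263 with array weights, 421 without the dimmest probesets and 12 with only the groups compared, and 8 to 99 when 1 array was left out. MEFs + ALL + DMSO, with 3651 called, had 6615 with array weights and 2137 to 2491 when 1 MEFs + DMSO array was left out. The cause was not tested. With the replicate number as a block, 0 probesets were called for MEFs + nilotinib and 8 for MEFs + ALL + nilotinib. Deviations of same-numbered arrays correlated at -0.29 to 0.24, so the numbers were not taken to pair the samples. Over the settings run, 189 results of named genes lost significance and none changed direction. With 3 dishes per group small changes can go uncalled.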
